A study of Mus musculus with 16 samples.

Results

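Oligodendrocyte nuclei of the mouse medial prefrontal cortex (PFC) were taken as those with at least 3 unique molecular identifiers (UMIs, each a counted RNA molecule) summed over Mag, Mog, Mobp, Aspa, Hapln2, St18 and Prr5l, with at least 2 of these 7 genes detected. A nucleus was also required to hold at most 1 UMI of Slc17a7, Gad1 and Gad2 together, which mark neurons, and at most 1 UMI of Pdgfra, Aqp4, Csf1r, P2ry12 and Flt1 together, which mark oligodendrocyte precursors, astrocytes, microglia and endothelium. Of 114512 nuclei, 1478 (1.29%) met this rule. They were thus chosen by their own UMI counts of these 15 genes, which are not reported as findings. They came from 16 male mice in 4 groups of 4, all 22 weeks old by the labels, and their RNA was counted with a droplet assay that reads the 3′ end of transcripts. WT mice were of the B6;129 strain. 3xTg-AD mice carry, among their alleles, human APP with the Swedish mutation and human tau with a P301L mutation, on a B6;129 background, so that the transgenes and any difference in background cannot be told apart. Alcohol groups breathed alcohol vapor in repeated cycles after injections of ethanol and pyrazole, and control groups breathed air after pyrazole alone. All mice had been tested in the Morris water maze.

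Oligodendrocytes wrap axons in myelin, a stack of compacted membrane whose proteins include myelin basic protein and whose lipids are made by enzymes such as Fa2h and Ugt8a. At the edge of each myelin segment the cell clasps the axon through adhesion molecules of the immunoglobulin family. In the cortex these cells also supply metabolites to axons and store iron, and they arise throughout life from precursors (OPCs) under the transcription factors Olig2, Sox10 and Myrf.

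The label was checked against 26 oligodendrocyte markers that the rule did not use, and each was higher in the oligodendrocyte nuclei than in all other nuclei. These levels describe the chosen nuclei and were not tested. Mbp (myelin basic protein) was at 3333 ± 424 CPM (the UMIs of a gene scaled by all UMIs of the same nuclei; mean ± SD over 16 mice) against 132 ± 25.9 in the other nuclei. Myrf, the regulator of myelin genes, was at 179 ± 56.4 against 3.51 ± 1.05. The enzymes of galactolipid synthesis Fa2h and Ugt8a were at 267 ± 65.4 and 277 ± 102 CPM against 4.57 ± 1.77 and 8.49 ± 2.82. Among 4021 genes outside the rule with at least 50 CPM in these nuclei, the 25 with the highest ratio to the other nuclei (at least 39.0-fold) included the myelin-associated Ermn (ermin), Gjc3 (a connexin), Anln (a septin partner) and Abca8a (a lipid transporter). Uncharacterized transcripts stood beside them, A230001M10Rik with a ratio of 143 and C030029H02Rik with a ratio of 92.1.

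**Figure D1:**
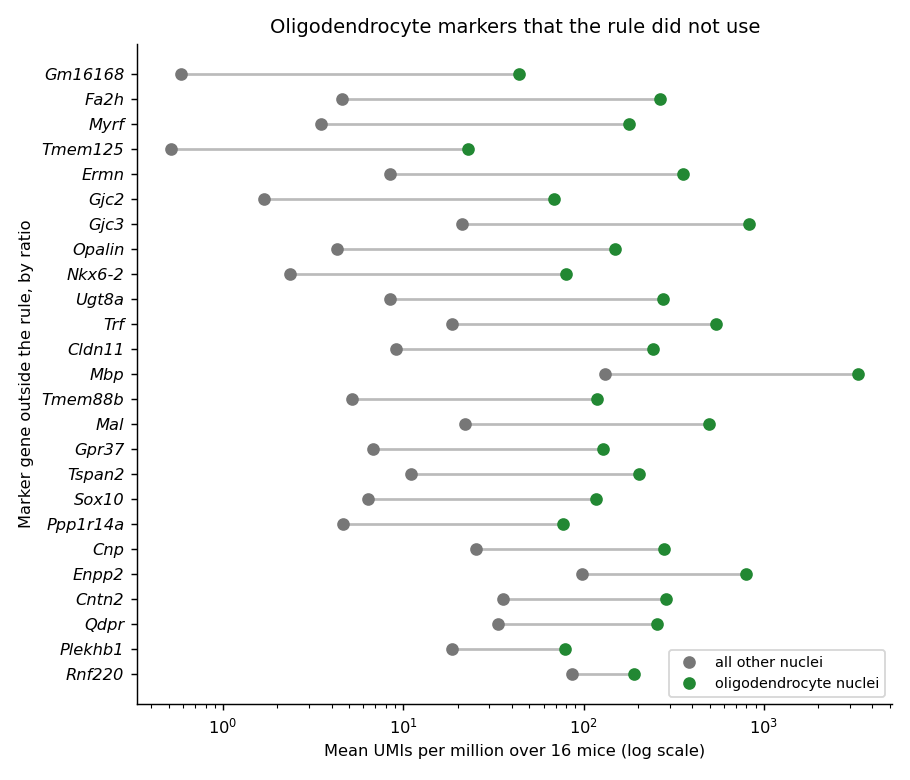
Levels of 25 of the 26 oligodendrocyte markers outside the rule, as mean CPM over 16 mice on a log scale, in oligodendrocyte nuclei (green) and all other nuclei (grey). Each marker plotted sits higher in the oligodendrocyte nuclei, Mbp at 3333 against 132.

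RNA of other cell types was present in these nuclei. Leaving out the genes that the rule limits, 12 of 15 neuronal genes, 8 of 13 astrocyte genes, 13 of 13 OPC genes, 12 of 15 vascular genes and 6 of 13 microglial genes were lower than in the other nuclei. The neuronal genes summed to 9268 CPM against 34200 in the other nuclei, and the microglial genes to 212 against 185. Most of the neuronal gap lay in the noncoding RNAs Meg3 (2576 against 17134 CPM) and Snhg11 (1470 against 10137). Snap25 was at 1040 against 1162 CPM. Nrgn (1171 against 847), Stmn2 (461 against 399) and Syn1 (185 against 166) were higher in the oligodendrocyte nuclei. With the 3 limited genes included, the neuronal sum ranged from 6559 to 15883 CPM per mouse. By group it was 10524 ± 3775 CPM for the WT control mice, 10207 ± 2989 for the WT alcohol mice, 9623 ± 1150 for the 3xTg-AD control mice and 7906 ± 1173 for the 3xTg-AD alcohol mice (SD, n = 4). The sum of 14 OPC genes, Pdgfra among them, was between 340 and 769 CPM. Pdgfra, Csf1r and Flt1, whose low counts the rule fixes, had 11, 26 and 3 UMIs in all, and of the vascular genes outside the rule Bnc2 had none. With the neuronal level as a covariate 16 genes instead of 11 were called between genotypes over both treatments, and with nuclei that held 0 UMIs of the other cell types' markers 15 were. Nuclei at the edge of the rule were less rich in myelin RNA when pooled over all mice. Mbp was at 3812 CPM with at least 5 marker UMIs, 2920 with exactly 3, and 1881 in 530 nuclei left out with 2 marker UMIs. No barcode was shared between oligodendrocyte nuclei of different libraries, and 1694 of 112806 distinct barcodes occurred in more than 1 library among all nuclei.

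The 16 mice gave 18 to 178 oligodendrocyte nuclei each. WT control mice 26, 27, 28 and 36 gave 129, 100, 18 and 164. WT alcohol mice 6, 7, 17 and 18 gave 51, 24, 178 and 64. 3xTg-AD control mice 12, 13, 14 and 21 gave 101, 45, 70 and 63, and 3xTg-AD alcohol mice 4, 31, 33 and 34 gave 87, 143, 82 and 159. The nuclei of a mouse held 18195 to 224835 UMIs in sum, so that mice 28 and 7 rest on the fewest molecules, and a nucleus had 920 UMIs at the median against 1561 in the other nuclei. In mice 26, 27 and 12, Gm42418, a transcript that resembles ribosomal RNA, took 48932, 30390.2 and 36958 CPM of the oligodendrocyte UMIs. The next highest mouse had 6925 CPM. Mice 26, 27 and 12 were all controls, so results on alcohol were also computed without them.

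No difference between groups in the oligodendrocyte share of nuclei was larger than the spread between mice. It was 1.85%, 2.02%, 0.258% and 2.54% in WT controls 26, 27, 28 and 36, and 0.573%, 0.368%, 2.53% and 0.720% in WT alcohol mice 6, 7, 17 and 18. In 3xTg-AD controls 12, 13, 14 and 21 it was 1.72%, 0.628%, 0.976% and 0.872%, and in 3xTg-AD alcohol mice 4, 31, 33 and 34 it was 0.958%, 1.99%, 0.901% and 3.21%. The groups overlapped, and the mice of 1 group differed by up to 9.83-fold. The smallest p-value was found for alcohol within 3xTg-AD mice, 1.76% ± 1.08 against 1.05% ± 0.472 (difference 0.715 percentage points, exact permutation test, two-sided, p = 0.229, adjusted p = 0.686 over 6 comparisons; 4 against 4 mice cannot go below p = 0.0286). With 1 mouse left out this difference ranged from 0.233, without mouse 34, to 1.002, without mouse 33. Between genotypes the shares were 1.41% ± 0.863 and 1.36% ± 0.974 (n = 8 each; exact permutation p = 0.908).

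**Figure D2:**
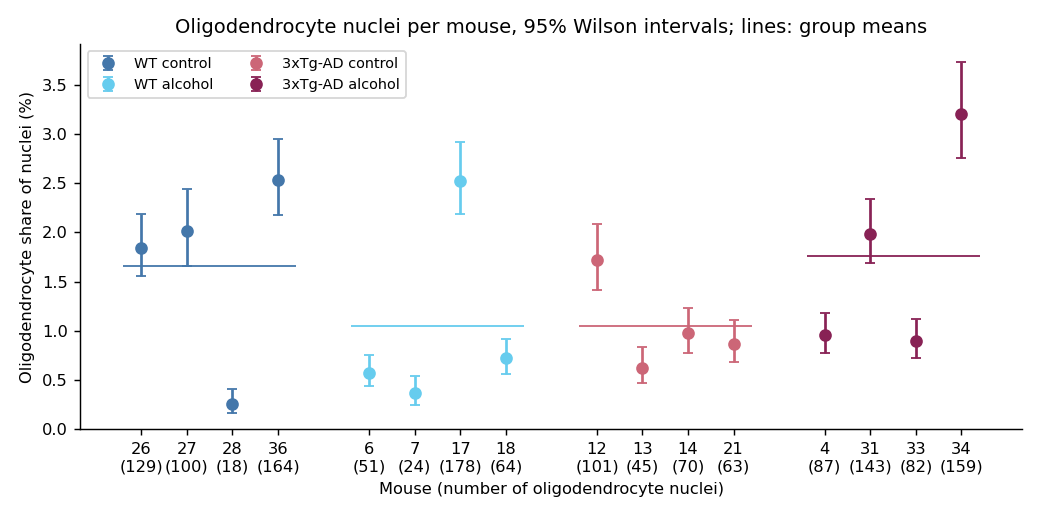
Oligodendrocyte share of all nuclei (%) for each of 16 mice, with 95% Wilson intervals that cover counting error only, and the group mean as a line; the number of oligodendrocyte nuclei stands under each mouse. The groups overlap, from 0.258% in WT control mouse 28 to 3.21% in 3xTg-AD alcohol mouse 34.

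Few of the nuclei carried genes of newly formed oligodendrocytes. At least 2 UMIs over Enpp6, Bmp4, Itpr2, Neu4, Gpr17 and Tcf7l2, which are transient in differentiation, were found in 36 of 1478 (2.44%), against 0.683% of nuclei with at least 2 UMIs of Slc17a7, the vesicular glutamate transporter of excitatory neurons, which had a median depth of 2551 UMIs. The share of a mouse was 0% to 12.5%, the highest value coming from 3 of 24 nuclei in mouse 7. No comparison of groups passed (adjusted p at least 0.729 in exact permutation tests). Among 28 transcription factor genes of the lineage, 14 were tested and none was called in any comparison, where at most 0.51% of all genes were called, so that 0 of 14 is near the background. Tcf4 was at 691 CPM and Zeb2 at 1027 CPM over all mice, with log2 fold changes between genotypes of 0.09 and 0.10.

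To ask which genes differed between groups within oligodendrocytes, the UMIs of the oligodendrocyte nuclei were summed per mouse and 2158 genes that passed a filter on low counts were fitted over all 16 mice with edgeR. Genes with a Benjamini-Hochberg adjusted p of at most 0.05, adjusted across the whole tested set, are termed called. Fold changes are on the log2 scale with a standard error, taken as the size of the fold change over the square root of its F statistic. A change in RNA per nucleus and a change in the mix of oligodendrocyte nuclei cannot be told apart in such sums.

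Cdh2 (N-cadherin, a homophilic adhesion molecule; chr18:16588877-16809246 on GRCm38, minus strand) separated the genotypes. In WT controls 26, 27, 28 and 36 it was at 265, 235, 495 and 615 CPM, and in WT alcohol mice 6, 7, 17 and 18 at 349, 162, 449 and 228 CPM. In 3xTg-AD controls 12, 13, 14 and 21 it was at 48.0, 139, 29.8 and 48.6 CPM, and in 3xTg-AD alcohol mice 4, 31, 33 and 34 at 81.5, 53.7, 57.5 and 59.9 CPM. The lowest WT mouse lay above the highest 3xTg-AD mouse, and the lowest WT value rests on 4 UMIs of mouse 7. Over both treatments Cdh2 fell by 2.60 ± 0.25 in 3xTg-AD mice (edgeR adjusted p = 7.6e-17). The log2 fold change was -2.74 ± 0.37 between controls (adjusted p = 1.3e-08) and -2.46 ± 0.33 between alcohol groups (adjusted p = 7e-09). These 3 calls held in every alternative fit and without each mouse in turn, with values of the genotype average between -2.82 and -2.39 when 1 mouse was left out. Between alcohol and control groups no difference in Cdh2 was detectable (log2 fold change -0.11 ± 0.28 over both genotypes, adjusted p = 0.93).

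The fall of Cdh2 was larger in oligodendrocyte nuclei than in other cells of the same mice. Nuclei were set aside in a like way by 6 markers each for astrocytes (3579) and OPCs (845). Slc17a7 nuclei (35310) were other nuclei with at least 2 UMIs of Slc17a7, with no limit on genes of other cell types. The genotype effect was compared between oligodendrocytes and each class in its own edgeR fit, with the mouse as a block. In astrocytes Cdh2 was at 169 ± 40.1 CPM in WT and 167 ± 34.4 in 3xTg-AD mice (SD, n = 8), and its log2 fold change was -0.02 ± 0.15. In OPC nuclei, the lineage from which oligodendrocytes arise, it was at 141 ± 44.1 and 129.9 ± 56.1 CPM, with a log2 fold change of -0.17 ± 0.32. In Slc17a7 nuclei it was at 139 ± 25.1 and 103 ± 11.8 CPM and fell by 0.41 ± 0.09 (adjusted p = 0.021). In oligodendrocytes it was at 350 ± 156 CPM in WT and 64.7 ± 33.2 in 3xTg-AD mice. The genotype effect in oligodendrocytes minus that in the other class was -2.63 ± 0.25 against astrocytes, -2.30 ± 0.36 against OPCs and -2.22 ± 0.23 against Slc17a7 nuclei, and Cdh2 was called in each of these differences, in which 5 (0.232%), 1 (0.0463%) and 7 (0.324%) of 2158 genes were called. Against the sum of all other nuclei it was -2.26 ± 0.22 (adjusted p = 1.2e-14), where 3 of 2158 genes (0.139%) were called. The nuclei were also split by marker UMIs and pooled over the mice of a genotype, which gives no spread between mice. The pooled level of Cdh2 in WT mice was 344 CPM with 3 marker UMIs, 323 with 4 and 447 with at least 5. In 3xTg-AD mice it was 80.0, 48.7 and 53.8 CPM. In nuclei with 2 marker UMIs, left out by the rule and pooled in the same way, Cdh2 was at 271 CPM in WT and 60.2 CPM in 3xTg-AD mice.

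Shtn1 (shootin, which links actin flow to adhesion molecules; chr19:58973356-59076100, minus strand) rose in 3xTg-AD oligodendrocytes. It was at 208, 319.6, 219.8 and 231 CPM in WT controls 26, 27, 28 and 36, at 330.0, 40.6, 218 and 212 CPM in WT alcohol mice 6, 7, 17 and 18, at 576, 578, 507 and 469.6 CPM in 3xTg-AD controls 12, 13, 14 and 21, and at 326, 496, 414 and 430.5 CPM in 3xTg-AD alcohol mice 4, 31, 33 and 34. The genotypes overlapped only through mouse 4 of the 3xTg-AD and mouse 6 of the WT group. The increase was 0.99 ± 0.18 over both treatments (edgeR adjusted p = 3.2e-05). In nuclei with at least 5 marker UMIs over 3 genes it was 0.64 and no longer called (edgeR adjusted p = 0.21). That fit left out mice 28 and 7, with 3 such nuclei each, and tested 774 genes. Between controls the increase was 1.06 ± 0.25 (adjusted p = 0.015). This call was lost without any 1 of mice 12, 13, 26 and 36 (adjusted p from 0.083 to 0.21) and in 6 of 11 alternative fits. Among them were DESeq2 (0.17), no filter on low counts (0.34), 0 UMIs of other cell types (0.17) and at least 5 marker UMIs (0.59 on the log2 scale, adjusted p = 0.87). DESeq2 and the fit with no filter were adjusted over up to 16261 genes instead of 2158. In the other nuclei Shtn1 had a log2 fold change of 0.01 ± 0.08, and the difference between oligodendrocytes and the other nuclei was called, at 0.91 ± 0.16, as was that from Slc17a7 nuclei, at 0.93 ± 0.16. The difference was not called against astrocytes (0.99 ± 0.33, adjusted p = 0.40) or OPCs (1.12 ± 0.40, adjusted p = 0.70). The third gene called in that difference was Slc24a2, a sodium, potassium and calcium exchanger. Its log2 fold change was 0.06 ± 0.17 in oligodendrocytes and -0.61 ± 0.18 in the other nuclei, neither of them called, and the difference was 0.65 ± 0.14.

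Of the 2158 genes, 11 (0.51%) were called over both treatments, 7 of them higher in 3xTg-AD mice (0.324%) and 4 lower (0.185%). Between controls 5 genes (0.232%) were called, 4 higher (0.185%) and 1 lower (0.0463%), and between alcohol groups 8 (0.371%), 5 higher (0.232%) and 3 lower (0.139%). An unadjusted p under 0.05 was found for 7.09% of all genes over both treatments, 4.17% between controls and 6.02% between alcohol groups. The largest rise by adjusted p was that of Tmsb4x (thymosin beta 4, which binds actin monomers; chrX:167207093-167209315, minus strand). Tmsb4x was at 1183, 1119, 1649 and 2217 CPM in WT controls 26, 27, 28 and 36 and at 2562, 2478, 2348 and 2731 CPM in WT alcohol mice 6, 7, 17 and 18. It was at 2882, 5199, 4879 and 4372 CPM in 3xTg-AD controls 12, 13, 14 and 21 and at 5414, 3562, 5282 and 3667 CPM in 3xTg-AD alcohol mice 4, 31, 33 and 34. The genotypes did not overlap, and the rise over both treatments was 1.13 ± 0.14 (adjusted p = 1.1e-10). Between controls the rise was 1.45 ± 0.20 (adjusted p = 1.4e-08) and between alcohol groups 0.80 ± 0.19 (adjusted p = 0.018). The latter call was lost without any 1 of mice 4, 6, 7, 17, 18 and 33 (adjusted p from 0.052 to 0.14), with DESeq2 (0.46), with at least 5 marker UMIs (0.056) and without mice 7, 13 and 28 (0.11).

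Gpm6b (glycoprotein M6B, a membrane protein found in myelin; chrX:166238911-166388988, plus strand) rose to a like extent. Gpm6b was at 617, 629.8, 385 and 745 CPM in WT controls 26, 27, 28 and 36 and at 873, 894, 725 and 819 CPM in WT alcohol mice 6, 7, 17 and 18. It was at 1268, 1155, 1373 and 1214 CPM in 3xTg-AD controls 12, 13, 14 and 21 and at 1584, 1738, 1795 and 1902 CPM in 3xTg-AD alcohol mice 4, 31, 33 and 34. The genotypes did not overlap, nor did any 2 of the groups except WT control and WT alcohol. Between 3xTg-AD alcohol and 3xTg-AD control mice Gpm6b was not called by edgeR, nor was any other of the 2158 genes. The rise over both treatments was 1.02 ± 0.14 (adjusted p = 5.8e-09), and from WT control to 3xTg-AD alcohol mice it was 1.39 ± 0.19 (adjusted p = 1.2e-08). Both genes also rose in the other classes: by 0.85 ± 0.15 (Gpm6b) and 0.95 ± 0.15 (Tmsb4x) in OPCs, and by 1.06 ± 0.11 and 1.04 ± 0.12 in astrocytes. Their effect in oligodendrocytes minus that in all other nuclei was 0.04 ± 0.11 and 0.10 ± 0.13, with adjusted p of 0.96 and 0.91. The 2 genes lie 0.818 megabases apart on chromosome X, and Piga, the only other tested gene within 2 megabases of Gpm6b, was not called.

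The sequences before the starts of these 2 neighbors are shown because both rose in every class of nuclei examined. They are the 250 bases before the RefSeq start (GRCm38.p6), in the direction of transcription. ACAAAG or its reverse complement CTTTGT, the core bound by SOX factors, is in capitals. The gene positions above are from GENCODE, whose starts differ, so that both stretches run past the GENCODE start into the gene. Gpm6b is chrX:166238693-166238942 on the plus strand and Tmsb4x is chrX:167209219-167209468 on the minus strand.
Gpm6b: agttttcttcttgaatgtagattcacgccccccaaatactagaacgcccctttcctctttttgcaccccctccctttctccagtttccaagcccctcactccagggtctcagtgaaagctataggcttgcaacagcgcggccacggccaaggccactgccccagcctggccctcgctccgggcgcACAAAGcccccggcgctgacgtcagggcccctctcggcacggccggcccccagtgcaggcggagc
Tmsb4x: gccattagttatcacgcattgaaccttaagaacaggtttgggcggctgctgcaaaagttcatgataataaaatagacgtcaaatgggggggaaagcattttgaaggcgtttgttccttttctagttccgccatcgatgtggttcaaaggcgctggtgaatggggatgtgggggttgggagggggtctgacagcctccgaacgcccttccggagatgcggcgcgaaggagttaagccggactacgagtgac
Gpm6b held 1 copy of ACAAAG, 65 bases before the RefSeq start, and Tmsb4x held none. Of 32851 mouse promoters of the same length, 16.5% held the motif on either strand.

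**Figure D3:**
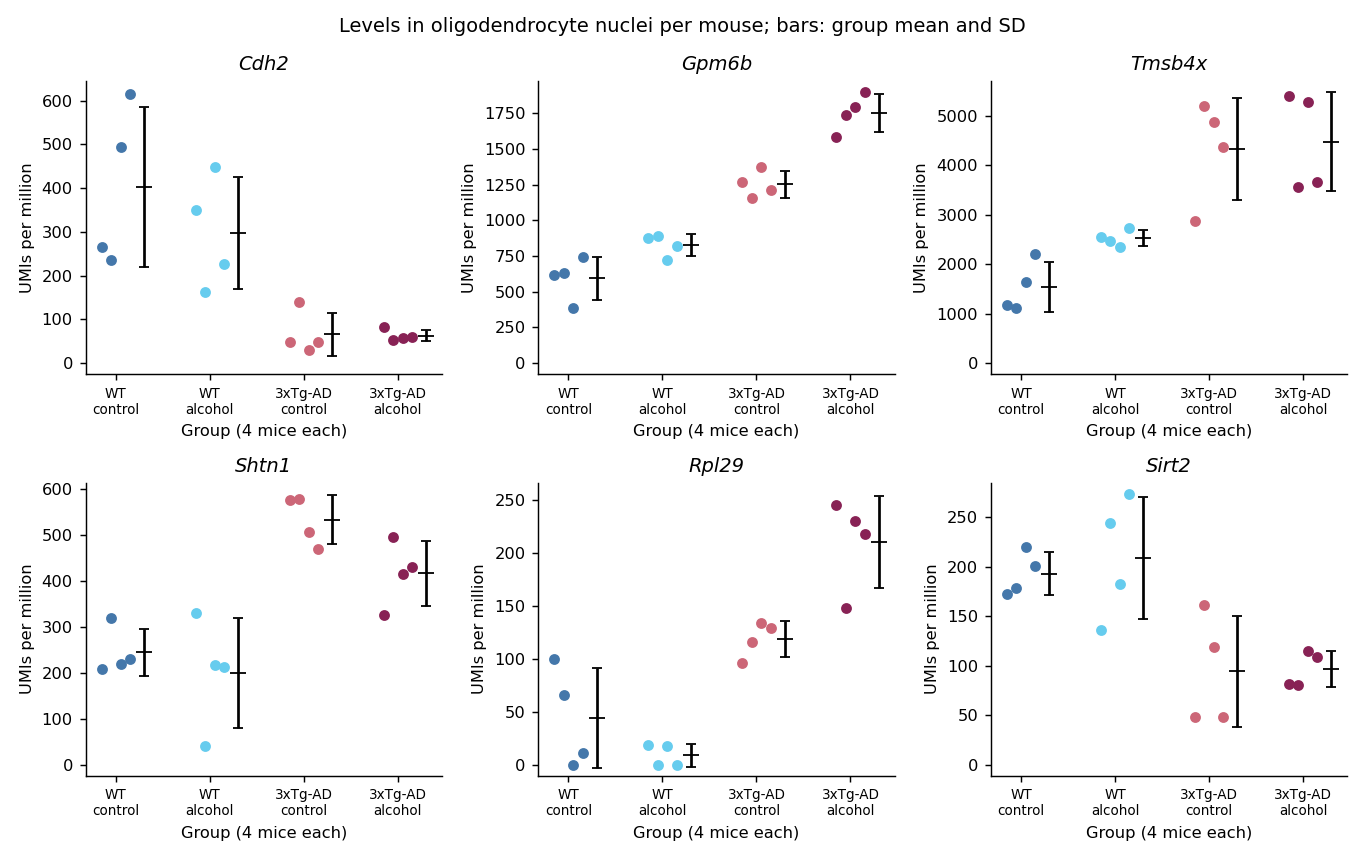
Levels of 6 genes in oligodendrocyte nuclei as CPM, each point 1 mouse in 4 groups of 4, with the group mean and SD as bars. For Cdh2, Gpm6b and Tmsb4x the 8 WT and the 8 3xTg-AD mice do not overlap; Cdh2 was lower in 3xTg-AD mice, at 64.7 against 350 CPM on average.

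Sirt2, a deacetylase found in myelin, fell by 1.12 ± 0.24 in 3xTg-AD oligodendrocytes over both treatments (edgeR adjusted p = 0.0019). It was at 172, 179, 219.8 and 201 CPM in WT controls 26, 27, 28 and 36, at 136, 244, 182 and 273 CPM in WT alcohol mice 6, 7, 17 and 18, at 48.0, 162, 119 and 48.6 CPM in 3xTg-AD controls 12, 13, 14 and 21, and at 81.5, 80.5, 115 and 109 CPM in 3xTg-AD alcohol mice 4, 31, 33 and 34. The genotypes overlapped through WT mouse 6 and 3xTg-AD mouse 13. The fall was 0.36 ± 0.08 in the other nuclei, and the difference of -0.82 ± 0.25 did not pass (adjusted p = 0.26). Sirt2 was not called without mice 12, 26 and 27 (adjusted p = 0.053) or after a stricter filter on nuclei (adjusted p = 0.089).

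Nfasc (neurofascin, whose glial form anchors the paranodal loops to the axon) was called lower in 3xTg-AD than in WT mice under alcohol, at -1.14 ± 0.25 (edgeR adjusted p = 0.012). It was at 349, 1178, 694 and 349 CPM in WT alcohol mice 6, 7, 17 and 18 and at 233, 208, 345 and 311 CPM in 3xTg-AD alcohol mice 4, 31, 33 and 34. WT mouse 7, with 24 nuclei, was the highest. The call was lost without any 1 of mice 4, 7, 17 and 31 (adjusted p from 0.060 to 0.19), with DESeq2 (0.22), with no filter on low counts (0.077) and without mice 7, 13 and 28 (0.11). Over both treatments Nfasc was at -0.67 ± 0.18 and not called (adjusted p = 0.060), and it was called with 0 UMIs of other cell types (-0.83, adjusted p = 0.0011) and with the neuronal covariate (-0.73, adjusted p = 0.0097). Between controls Nfasc had a log2 fold change of -0.20 ± 0.26 (adjusted p = 0.99), and the interaction of genotype and alcohol did not pass (-0.94 ± 0.37, adjusted p = 1.0).

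Rpl29, a ribosomal protein of the large subunit, rose by 2.42 ± 0.35 in 3xTg-AD oligodendrocytes over both treatments (edgeR adjusted p = 6.5e-08). Between alcohol groups fitted alone the rise was 3.79 (edgeR adjusted p = 6.6e-10). Rpl29 was not called between controls, and was too low to test when the control mice were fitted alone. It was at 100.4, 65.8, 0 and 11.8 CPM in WT controls 26, 27, 28 and 36 and at 19.4, 0, 17.8 and 0 CPM in WT alcohol mice 6, 7, 17 and 18, which is 28 UMIs in all WT mice together. It was at 96.1, 116, 134 and 129.5 CPM in 3xTg-AD controls 12, 13, 14 and 21 and at 245, 148, 230.1 and 218 CPM in 3xTg-AD alcohol mice 4, 31, 33 and 34. WT mouse 26 overlapped with 3xTg-AD mouse 12. The rise in the other nuclei was 1.84 ± 0.44, and of 76 ribosomal protein genes tested Rpl29 was the only one called between genotypes (1.32%, beside 0.51% of all genes). Without mice 12, 26 and 27 the rise of Rpl29 over both treatments was 3.599 ± 0.49. Gm8797, a predicted gene on chromosome 3, had 105 UMIs in the WT and 10 in the 3xTg-AD oligodendrocytes and was called lower over both treatments (adjusted p = 5e-05), with a log2 fold change of -3.13 ± 0.61 in the other nuclei. This call was lost with DESeq2 (adjusted p = 0.061) and without mice 7, 13 and 28 (adjusted p = 0.100), and the call between alcohol groups was lost in the same 2 fits (1.0 and 0.34) and without any 1 of 7 mice (highest adjusted p = 0.14). Rpl29 has processed pseudogenes and Gm8797 is itself a predicted gene, so the assignment of their reads is uncertain, and it was not tested.

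Of the other genes called between genotypes, each was lost when single mice were left out. Neat1, a nuclear noncoding RNA, rose by 0.66 ± 0.15 over both treatments (edgeR adjusted p = 0.0084). This call was lost without mouse 34 (0.52, adjusted p = 0.094), with DESeq2 (0.16), with at least 5 marker UMIs (0.068), with the Gm42418 covariate (0.083) and without mice 7, 13 and 28 (0.20). Its rise of 0.89 ± 0.21 between alcohol groups was lost without any 1 of 7 mice and in 6 of 11 alternative fits. The genotype effect of Neat1 differed from that in astrocytes by 0.85 ± 0.16 (adjusted p = 0.0018), and its difference was not called against OPCs (0.55, adjusted p = 0.97), Slc17a7 nuclei (0.39, adjusted p = 0.23) or all other nuclei (0.41, adjusted p = 0.52). Zdhhc20, a palmitoyltransferase, rose by 0.81 ± 0.20 and Fcho1, which starts clathrin pits, by 0.93 ± 0.24, and these calls were lost without any 1 of 6 and of 9 mice (highest adjusted p = 0.16 and 0.18) and in 5 and 6 of 10 alternative fits (highest 0.46 and 0.45). Fcho1 was also called between alcohol groups (1.28 ± 0.33), a call lost without any 1 of 8 mice and in 5 of 11 alternative fits. AY036118, which lies beside Gm42418 on chromosome 17, fell by 0.53 ± 0.14, a call lost without any 1 of 10 mice (highest adjusted p = 0.36) and in 6 of 10 alternative fits (highest 0.76). Ndn, an imprinted gene, was called between controls (1.49 ± 0.37, adjusted p = 0.040) and lost without any 1 of 8 mice (highest adjusted p = 0.35) and in 7 of 10 alternative fits (highest 0.67).

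**Figure D4:**
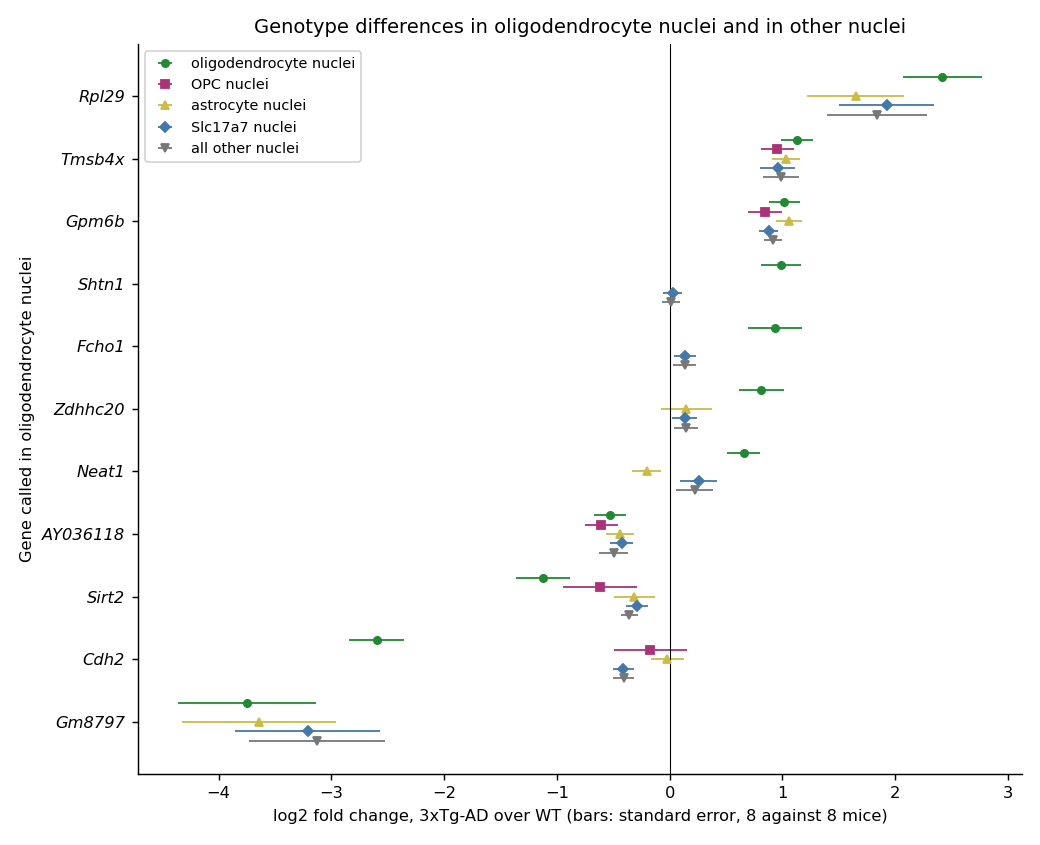
log2 fold change of 3xTg-AD over WT mice (8 against 8, bars are standard errors) for the 11 genes called in oligodendrocyte nuclei, shown for oligodendrocytes (green) and 4 other classes of nuclei where the gene was tested. Cdh2 lies at -2.60 in oligodendrocytes and between -0.41 and -0.02 elsewhere, whereas Gpm6b and Tmsb4x lie between 0.85 and 1.13 in all classes.

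The controls and the alcohol groups give 2 estimates of the genotype difference that share no mouse. When each was fitted on its own 8 mice, 6 genes were called between controls and 8 between alcohol groups, and Cdh2, Gpm6b and Tmsb4x were called in both. All 6 genes called between controls had the same sign between alcohol groups, and so did the 7 of 8 that were tested in the other direction. Cdh2, Gpm6b and Tmsb4x are in both counts, and same signs were not counted over all genes. Some matching values were small beside their error, such as Ndn between alcohol groups (0.28 ± 0.32) and Nfasc between controls (-0.22 ± 0.24). Ptgds (prostaglandin D synthase) was among the 6, with a fall of 1.07 (adjusted p = 0.0070) and a log2 fold change of -0.96 ± 0.44 between alcohol groups (adjusted p = 0.65), and it was not called when all 16 mice were fitted together (adjusted p = 0.24 over both treatments). Shtn1 had 1.04 between controls and 0.92 ± 0.25 between alcohol groups (adjusted p = 0.055).

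Of 28 genes of myelin proteins and compaction 19 were tested, of which Gpm6b rose and Sirt2 fell over both treatments, 2 of 19 beside 11 of 2158 (0.51%) over all genes. Their median log2 fold change was -0.03 beside 0.01 for all 2158 genes. Mbp had a log2 fold change of -0.03 ± 0.14. Mbp was at 3276, 4333, 3023 and 3086 CPM in WT controls 26, 27, 28 and 36 and at 4025, 3119.6, 3252 and 3028 CPM in 3xTg-AD controls 12, 13, 14 and 21. The groups overlapped. None of 14 tested of 40 genes of myelin lipid synthesis was called (median -0.11), among them Scd2, the desaturase, at -0.08 ± 0.14. None of 16 tested of 43 channel, transporter and gap junction genes was called (median -0.07), with Gjc3 at 0.27 ± 0.15. None of 12 tested of 30 genes of iron and antioxidant metabolism was called (median 0.10), where Fth1, the ferritin heavy chain, had 0.12 ± 0.14 and Trf, transferrin, 0.33 ± 0.15.

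Genes of the paranode and of axon contact had 32 of 50 members tested. Cdh2 was called over both treatments, 1 of 32 (3.12%) beside 0.51% of all genes, and Cdh2 and Nfasc between alcohol groups, 2 of 32 (6.25%) beside 0.371%. The median over both treatments was 0.04. Ank2 and Rtn4 (ankyrin B and Nogo) had 0.06 ± 0.13 and -0.07 ± 0.14. Of 36 signalling receptors and linked transcripts 11 were tested and Neat1, which that list also holds, was the only one called (9.09% beside 0.51%). Of 39 genes raised in immune-responsive oligodendrocytes 10 were tested and none was called (median -0.22), Apoe at -0.17 ± 0.14. Of 35 genes of mature oligodendrocyte states 17 were tested and none was called, with Enpp2 at 0.09 ± 0.14 and Car2 at -0.15 ± 0.15. At 0.51% of all genes called, 0 of 10 to 17 tested members of a list is near the background. The lists were written with earlier results of these data known, and none was tested as a set. A higher share that rests on 1 or 2 genes is thus no result about a list.

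App, Mapt and Thy1 were not called in oligodendrocytes, and the human transgenes were not in the gene table. App was at 753 ± 94.8, 853 ± 110.1, 744 ± 128 and 753 ± 64.8 CPM in WT controls, WT alcohol mice, 3xTg-AD controls and 3xTg-AD alcohol mice, with a log2 fold change of -0.12 ± 0.14 between genotypes. Mapt (tau) had 0.24 ± 0.14 and Thy1, the source of the transgene promoter, 0.31 ± 0.20, with adjusted p of 0.77 and 0.83. Of 31 genes linked to amyloid and tau 22 were tested and none was called, beside 0.51% of all genes.

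Alcohol was followed by no called gene in WT or in 3xTg-AD oligodendrocytes taken alone with edgeR. In WT mice 181 of 2158 genes (8.39%) had an unadjusted p under 0.05 and DESeq2 called 0. In 3xTg-AD mice 118 (5.47%) did and DESeq2 called 0. The interaction of genotype and alcohol gave 0 called genes with edgeR and with DESeq2, and 82 (3.8%) with an unadjusted p under 0.05. The WT count rested on mouse 36: without this WT control 7 genes were called, while without mouse 27, 12 or 14 it was 1. Genes with the lowest p in WT mice failed the correction: Bc1 at -0.99 ± 0.23 (adjusted p = 0.11), the microtubule gene Map1a at -1.02 ± 0.26 (0.11), Sec14l5 at -0.97 ± 0.27 (0.18), Chuk at -1.44 ± 0.39 (0.18) and the protocadherin Pcdh9 at -0.73 ± 0.21 (0.25). In 3xTg-AD mice Klf9, a glucocorticoid target, had 1.20 ± 0.31 (0.34), Bc1 -0.83 ± 0.22 (0.45), Eno1, the glycolytic enolase, 1.40 ± 0.42 (0.49), and Mapk1ip1 and Ralgapa1 had -1.37 ± 0.40 (0.47) and -0.96 ± 0.30 (0.49). Bc1 was the gene called in WT mice with 0 UMIs of other cell types (adjusted p = 0.0025), with the filter on nuclei (0.00030) and with only the mice compared (0.030), and in 3xTg-AD mice it was called with the former 2 settings (0.012 and 0.025) and without mouse 14 (-0.98, adjusted p = 0.029). Without mouse 12 its value in 3xTg-AD mice was -0.43 (adjusted p = 0.99), and with the Gm42418 covariate it was -0.42 (adjusted p = 0.94). Klf9 was at 134, 69.3, 149 and 97.2 CPM in 3xTg-AD controls 12, 13, 14 and 21 and at 221, 295, 230.1 and 343 CPM in 3xTg-AD alcohol mice 4, 31, 33 and 34, without overlap. In WT mice Klf9 had 0.09 ± 0.29, and the interaction did not pass (1.12 ± 0.43, adjusted p = 1.0).

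Averaged over genotypes, 2 genes (0.0927%) were called with alcohol, both lower, Bc1 and Gm26917, and 10.4% of all genes had an unadjusted p under 0.05. Bc1, a small cytoplasmic RNA of neurons, fell by 0.91 ± 0.16 (edgeR adjusted p = 0.00071). It was at 4079, 3111, 2858 and 2211 CPM in WT controls 26, 27, 28 and 36, at 1825, 2112, 1289.8 and 1532 CPM in WT alcohol mice 6, 7, 17 and 18, at 3555, 1895, 1581 and 1943 CPM in 3xTg-AD controls 12, 13, 14 and 21, and at 1630.1, 1382, 1404 and 959 CPM in 3xTg-AD alcohol mice 4, 31, 33 and 34. The groups overlapped in 3xTg-AD mice and not in WT mice. The 3 highest values came from mice 26, 12 and 27, which also had the most Gm42418. Without these 3 mice the fall was 0.49 (adjusted p = 0.12), with the Gm42418 level as a covariate 0.41 (adjusted p = 0.63), and without mouse 27 alone 0.90 (adjusted p = 0.12). The call was also lost with DESeq2 (adjusted p = 0.084) and with at least 5 marker UMIs (adjusted p = 0.075). Bc1 also fell in OPCs (-0.83 ± 0.14, adjusted p = 8.9e-06) and in all other nuclei (-0.84 ± 0.22, adjusted p = 0.047). Gm26917, a noncoding gene beside Gm42418, fell by 0.82 ± 0.20 (adjusted p = 0.049), a call lost without any 1 of 10 mice and in 6 of 10 alternative fits. No difference in alcohol effect between oligodendrocytes and all other nuclei passed (0 of 2158 genes called by edgeR, 105 with an unadjusted p under 0.05).

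**Figure D5:**
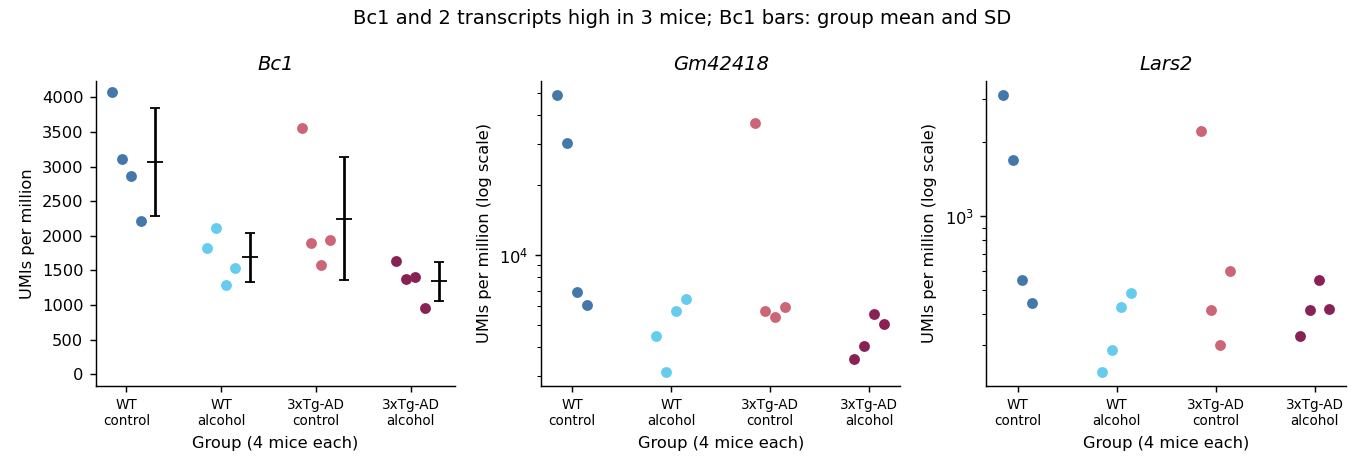
Bc1, Gm42418 and Lars2 in oligodendrocyte nuclei as CPM, each point 1 mouse in 4 groups of 4; Gm42418 and Lars2 are on log axes, and bars for Bc1 are the group mean and SD. WT controls 26 and 27 and 3xTg-AD control 12 stand at 48932, 30390.2 and 36958 for Gm42418, and the same mice are the highest for Lars2.

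No member of the lists of myelin proteins, myelin lipids, paranode, transcription factors, channels, receptors, iron metabolism, immune-responsive genes or glucocorticoid targets was called over both genotypes, beside 0.0927% of all genes. Their medians ranged from -0.13 for paranode genes to 0.48 for the 4 glucocorticoid targets tested of 26, beside -0.01 for all genes. Mbp had a log2 fold change of -0.11 ± 0.14.

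The comparison in which both factors differ, 3xTg-AD alcohol against WT control mice, gave 10 called genes (0.463%), 6 higher (0.278%) and 4 lower (0.185%), and 8.67% of all genes had an unadjusted p under 0.05. Beside Cdh2 (-2.70 ± 0.32), Tmsb4x (1.47 ± 0.20) and Gpm6b, they were Rpl29 (1.83 ± 0.37), Actg1, a cytoplasmic actin (0.87 ± 0.21), the myelin septin partner Anln (0.89 ± 0.23) and Ifi27, an interferon-induced gene (1.53 ± 0.39), all higher. Lower were Bc1 (-1.31 ± 0.22), AY036118 (-0.80 ± 0.20) and Kndc1 (-1.07 ± 0.28). Anln was at 194, 282, 55.0 and 426 CPM in WT controls 26, 27, 28 and 36 and at 664, 577, 426 and 572 CPM in 3xTg-AD alcohol mice 4, 31, 33 and 34. Ifi27 was at 43.0, 56.4, 55.0 and 53.2 CPM and at 105, 93.9, 127 and 267 CPM in the same mice. Anln, Kndc1, Actg1 and AY036118 lost their calls without any 1 of 6, 6, 4 and 4 mice (highest adjusted p = 0.32, 0.21, 0.096 and 0.44). Ifi27 lost it without mouse 26 or 36 (adjusted p = 0.11 and 0.084) and without mouse 34, where it was at 0.94 (adjusted p = 0.63). Rpl29 lost it without mouse 36 (1.22, adjusted p = 0.094) and with DESeq2 (adjusted p = 0.077), and was at 2.63 without mouse 26, 2.56 with the Gm42418 covariate and 4.13 without mice 12, 26 and 27. With the Gm42418 level as a covariate Bc1 was at -0.66 (adjusted p = 0.29), AY036118 at -0.21 (adjusted p = 0.98), Actg1 at 0.62 and Anln at 0.70 (adjusted p = 0.64 and 0.60), and none of them was called, nor were Ifi27 and Kndc1 (adjusted p = 0.24 for each). With DESeq2 Actg1, AY036118, Anln, Ifi27 and Kndc1 were not called either. The number of calls was 18 without mouse 36 and 6 without mouse 4. Of 48 interferon-stimulated genes Ifi27 was the only one with enough counts to be tested. The list summed to 1389 CPM in the oligodendrocytes of mouse 34 and to between 329.8 and 598 CPM in those of the other 15 mice, and in the other nuclei to 1182 CPM against 376 to 598. Lars2 was at 3126, 1692, 549.6 and 443 CPM in WT controls 26, 27, 28 and 36 and at 326, 416, 552 and 419.6 CPM in 3xTg-AD alcohol mice 4, 31, 33 and 34, and had a log2 fold change of -1.995 that was not called (adjusted p = 0.40). With the Gm42418 level as a covariate its log2 fold change was 0.35. Cdk8 and Cmss1 had 49 and 25 UMIs in all oligodendrocytes and were too low to test.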

How the data were processed

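Single nuclei of the medial PFC of 16 mice were sequenced, and the authors aligned the reads with Cell Ranger 6.1.1 (which runs STAR) to mm10. The deposited files hold raw UMI counts for 19999 genes and 114512 nuclei, with no normalization. The labels number each mouse, and nuclei were not treated as replicates. No doublet caller was run; the limits on genes of other cell types in the rule stood in its place. UMIs of the chosen nuclei were summed per mouse, filtered with filterByExpr, scaled by TMM and fitted with edgeR 4.0.16 (quasi-likelihood test, robust, 4 group means; R 4.3.3). DESeq2 1.42.0 was an alternative. It was run on all 16261 genes with a UMI in these nuclei, without the filter that left 2158 genes for edgeR. A call lost with DESeq2 can thus reflect the set of genes as well as the method, and these were not told apart. A mouse with under 10 chosen nuclei was left out of a fit. This removed mice 28 and 7, with 3 nuclei each, from the fit with at least 5 marker UMIs over 3 genes. The fits were also run on simulated counts with the same spread for all genes and no outlying mice. That run does not bear on calls that depend on single mice. Shares were compared by exact permutation tests over all splits of the mice, and Wilson intervals (scipy 1.17.1) cover counting error only. Positions are from GENCODE M21 (GRCm38).

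The members and the gene lists were chosen with earlier results of these data known. Named genes were the 12 called genes of lowest p per comparison (the 5 of lowest p where none was called), called genes of the lists, the 3 most abundant members of each list, Cdh2, Cdk8, Lars2 and Cmss1, and App, Mapt and Thy1. Some genes that this rule names are not reported here. Slc24a2 and Piga were named after their values were seen. The comparison between classes of nuclei and the fits without mice 7, 13 and 28 were chosen after seeing the data. Other alternatives were no filter on low counts, RLE size factors, at least 5 marker UMIs over 3 genes, 0 UMIs of other cell types, a filter on nuclei (at least 500 genes, at most 5% mitochondrial UMIs, top 5% by UMIs removed), Gm42418 or neuronal level as a covariate, only the mice compared, and leaving out each mouse or mice 12, 26 and 27.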

Additional observations from a re-analysis of the deposited data

Results flagged for a closer look

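Among 88 groups of 4 mice examined, 4 held a mouse whose gap to the others passed Dixon's 95% limit, and chance marks about 1 in 20 groups. The oligodendrocyte share was 2.53% in WT alcohol mouse 17 and 0.368% to 0.720% in the other WT alcohol mice. The share of oligodendrocyte nuclei with newly formed genes was 12.5% (3 of 24 nuclei) in WT alcohol mouse 7 and 1.56% to 2.81% in the others. Ndn was at 92.6 CPM in 3xTg-AD alcohol mouse 34 and at 173 to 188 CPM in the others. Gm8797 was at 14.9 CPM, from 1 UMI, in 3xTg-AD control mouse 14 and had no UMI in the other 3 mice of that group.

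A further check flagged 2 genes whose mean moved in opposite directions with alcohol in the genotypes, and opposite signs were not counted over all genes. Rpl29 changed by -35.2 CPM in WT and by 91.2 CPM in 3xTg-AD mice, and Fcho1 by -65.9 and 57.9 CPM. Neither interaction passed in edgeR (Rpl29 2.74, adjusted p = 0.70; Fcho1 0.68, adjusted p = 1.0).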

How the results depend on the processing

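Of 36 pairs of a called gene and a comparison, 12 kept their call in every alternative in which the gene was tested and without each mouse (Rpl29 was not tested with at least 5 marker UMIs): Cdh2 in 3 comparisons of genotype, Gpm6b over both treatments and between alcohol groups, Tmsb4x over both treatments and between controls, Rpl29 over both treatments and between alcohol groups, and Cdh2, Gpm6b and Tmsb4x between 3xTg-AD alcohol and WT control mice, where alcohol differs too. Gpm6b between controls (0.94, adjusted p = 0.0038) lost its call with no filter (0.34), without mice 12, 26 and 27 (0.10) and without mice 7, 13 and 28 (0.071). The other 24 lost it at least once, and none changed sign. The numbers of called genes moved by over 1.5 times as follows. Between controls the number went from 5 to 3 with DESeq2, 10 with no filter on low counts and 3 without mice 7, 13 and 28. Between alcohol groups it went from 8 to 4 with DESeq2, 14 with no filter, 4 with at least 5 marker UMIs, 15 without mice 12, 26 and 27, and 3 without mice 7, 13 and 28. For alcohol in WT mice it went from 0 to 1 with 0 UMIs of other cell types, with the filter on nuclei and with only the mice compared. For alcohol in 3xTg-AD mice it went from 0 to 1 with no filter, with 0 UMIs of other cell types, with the filter on nuclei and without mice 7, 13 and 28. Between 3xTg-AD mice exposed to alcohol and WT controls it went from 10 to 4 with DESeq2, 16 with the filter on nuclei and 5 with the Gm42418 covariate. Over both treatments the genotype number went from 11 to 23 with no filter and 6 with at least 5 marker UMIs. Over both genotypes the alcohol number went from 2 to 0 with DESeq2, with the Gm42418 covariate and without mice 12, 26 and 27, to 1 with no filter, 5 with 0 UMIs of other cell types and 4 with the filter on nuclei. DESeq2 and the fit with no filter took in 16261 genes. The fit with at least 5 marker UMIs took in 774 genes and left out mice 28 and 7. The cause of these changes was not tested.

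With 1 mouse left out, the number of called genes ranged from 3 to 7 between controls, 4 to 9 between alcohol groups, 0 to 7 for alcohol in WT mice, 0 to 1 in 3xTg-AD mice, 6 to 18 between 3xTg-AD alcohol mice and WT controls, 0 to 19 for alcohol over both genotypes and 0 to 1 for the interaction. The highest numbers of 7, 18 and 19 were without WT control mouse 36.

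Some differences that were not called changed sign. Mbp between genotypes went to 0.0294 with no filter, 0.0233 with the filter on nuclei, 0.0582 with the Gm42418 covariate and 0.0291 without mice 12, 26 and 27, and ranged from -0.112 to 0.0686 with 1 mouse left out. Lars2 between 3xTg-AD alcohol and WT control mice went from -1.995 to 0.35 with the Gm42418 covariate (-2.37 to -1.25 with 1 mouse left out). Cdh2 with alcohol went to 0.18 with at least 5 marker UMIs and 0.18 without mice 7, 13 and 28 (-0.31 to 0.12 with 1 mouse left out). The oligodendrocyte share between genotypes went to -0.185 percentage points without mice 7, 13 and 28 (-0.206 to 0.220 with 1 mouse left out), and with alcohol to -0.0144 with 0 UMIs of other cell types and -0.108 without mice 7, 13 and 28 (-0.209 to 0.217). The newly formed share between alcohol groups went from -1.96 percentage points to 0.639 without mice 7, 13 and 28 (-3.01 to 0.639). With alcohol in WT mice it went from 1.54 to -1.10 when thinned to 700 UMIs, -0.145 with at least 5 marker UMIs and -0.256 without mice 7, 13 and 28 (-1.05 to 2.59). Thinned, it went from 1.24 to -0.932 with alcohol in 3xTg-AD mice and from 1.39 to -1.02 over both genotypes. No paired analysis was possible because each mouse has its own number and the groups share none. Mice 28 and 7 rest on 18 and 24 nuclei, which limits the precision of their values.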
